A study of Mus musculus with 797 samples.

Results

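AiE0779m is the name of 1 adeno-associated virus (AAV) vector in a study of enhancer viruses, and the nuclei described here are the glutamatergic ones that its reporter marked, set against glutamatergic nuclei marked by 10 other vectors of the same library set. A nucleus was taken where it had at least 50000 reads, at least 1000 genes, a Slc17a7 level of at least 10 CPM (counts scaled to 1000000 gene reads per nucleus) and less than 10 CPM of Gad1 and Gad2 together. These limits left 30 nuclei of AiE0779m and 191 of the other vectors, 221 of the 797 nuclei in the series. The values that chose the nuclei were those of Slc17a7, Gad1 and Gad2, which are given below as a description only.

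Single nuclei were flow-sorted from C57Bl/6J mice that had received 1 virus each, at 5e11 vector genomes per mouse, 3 to 4 weeks before. All viruses were packaged in PHP.eB, a capsid that crosses the blood-brain barrier, and drove H2B-SYFP2, a histone-bound yellow fluorescent protein that stays in the nucleus. The nuclei described carried AiE0779m. Those they were compared with carried AiE0078h (22 nuclei), AiE0140h (22), AiE0387m (18), AiE0391h (11), AiE0401h (21), AiE0410m (15), AiE0445h_3xC2 (31), AiE0447h (27), AiE0743m_3xC2 (14) or hSyn1 (10), the last being the human synapsin 1 promoter used to mark neurons in general. No uninjected nuclei, animal, sex or age is named for these groups, so each vector is 1 sample. The nuclei of AiE0779m may come from 1 animal, and differences between vectors cannot be told apart from differences between mice.

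Slc17a7 encodes the vesicular glutamate transporter VGLUT1, which fills synaptic vesicles in excitatory neurons of the cortex, hippocampus and amygdala. Excitatory neurons of the cortex are grouped by layer and target: intratelencephalic cells of the upper and middle layers send axons within the forebrain, extratelencephalic cells of layer 5 reach the brainstem, and corticothalamic cells of layer 6 reach the thalamus. The principal neurons of the striatum, the labelled tissue, are GABAergic and lack VGLUT1. A further axis among excitatory neurons is recent activity, which within minutes switches on immediate early genes such as Fos, Egr1 and Arc and later the genes of secreted and synaptic proteins.

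Reads in genes numbered 171267 to 502340 per AiE0779m nucleus, the median being 289376.5, and the medians of the other vectors lay between 226512 and 345616. Thinned to 100000 reads each, AiE0779m nuclei had a median of 2645 genes, against medians of 2229 to 2740 for the other vectors. No nuclei had identical counts, and 205 pairs of index sequences were used in more than 1 library set. Slc17a7 had reads in all 30 AiE0779m nuclei, the lowest at 233 CPM, and Gad1 and Gad2 were both at 0 in all 30. The 2 AiE0779m nuclei of the set that fell outside the limits had 355 and 1031 CPM of Gad1 and Gad2 together, with Slc17a7 at 221 and 136 CPM. Across 4794 genes, the profile of AiE0779m correlated with those of the other vectors at Pearson's r of 0.764 to 0.873 with a median of 0.831, and the 45 pairs among the other vectors at 0.688 to 0.856 with a median of 0.783. These are correlations across genes that share libraries and depth, and genes are not independent replicates. They also ran with the number of nuclei averaged, from 0.764 with hSyn1 (10 nuclei) to 0.873 with AiE0445h_3xC2 (31). AiE0779m has 30 nuclei, so its higher median is no measure of likeness alone.

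Across the transcriptome no gene passed the test between AiE0779m and the other vectors. edgeR's quasi-likelihood test on reads summed per vector called 0 of 15786 genes higher (0.0%) and 0 lower (0.0%) at a Benjamini-Hochberg adjusted p under 0.05, and the smallest adjusted p was 0.441. At an unadjusted p under 0.05 the same test had 268 genes higher in AiE0779m (1.7%) and 108 lower (0.684%). The balance depended on the genes and the tool. At the same unadjusted p, edgeR on the 4794 more widely read genes below had more genes lower than higher. DESeq2 had more lower on both sets of genes, and limma had more higher on both. The spread in this fit is that between 10 different viruses, and AiE0779m, with 1 sample, was assumed to vary like them. DESeq2 called 0 genes higher and 229 lower, of which 197 had no read in any AiE0779m nucleus. limma on mean log2(CPM+1) called 284 higher and 1 lower, and 194 of the 284 had no read in any nucleus of the other vectors. Restricted to the 4794 genes read in at least 20% of nuclei, edgeR and limma called 0 genes in either direction and DESeq2 called 2, both lower, Gls2 and Fam213a.

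The remaining values are therefore descriptions of where AiE0779m stood among 11 vectors. A level is the mean of log2(CPM+1) over the nuclei of a vector, and a difference is the AiE0779m level minus the mean of the 10 other levels, each vector with equal weight. A gene was counted as above or below the limits where the difference was at least 1, a factor of 2, and AiE0779m lay outside the range of all other vectors. Of 4794 genes, 240 were above (5.01%) and 87 below (1.81%), which is 6.82% in either direction. AiE0779m lay above every other vector for 314 genes (6.55%) and below every other vector for 149 (3.11%), together 9.66%, whatever the size of the difference. By place alone any 1 of 11 like vectors would be highest for about 1 in 11 genes, and lowest for as many. Both shares are below that, so these counts do not set AiE0779m apart from the other vectors. The median difference over all 4794 genes was 0.11, and 56.0% of them were positive, so a small positive value is the usual one here.

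Of the 12 genes furthest above the other vectors, 10 are annotated as protein-coding and 2, A230006K03Rik and 9530059O14Rik, as long intergenic noncoding RNAs. Akr1a1, which encodes an aldehyde reductase (ENSMUSG00000028692, chromosome 4, 116636510 to 116651680, mm10), came first. It had reads in 21 of 30 AiE0779m nuclei (70%, exact 95% interval 50.6 to 85.3), against 28.6% to 63.6% of nuclei in the other vectors. Its level was 6.07 ± 4.29 (SD over 30 nuclei) in AiE0779m, and 1.47 in AiE0447h, the lowest, and 3.89 in AiE0391h, the highest of the other vectors, with a median of 3.04. Its reads summed over nuclei came to 393 CPM in AiE0779m (Poisson 95% interval 379 to 406), against 32.9 to 179 CPM, so that both the share of nuclei and the summed level lay outside the range of the others. The difference in level was 3.28, and edgeR's adjusted p was 0.679.

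A230006K03Rik was read in 29 of 30 AiE0779m nuclei, against 35.7% to 77.4% of nuclei elsewhere. Its level was 8.25 ± 1.77 in AiE0779m, against 3.17 to 6.57 in the other vectors, while its summed level of 416 CPM lay inside their range of 115 to 448 CPM. The same held for Rab14, a small GTPase of endosomal and Golgi traffic, with a level of 6.47 ± 3.50 against 3.07 to 6.18 and a summed level of 291 CPM against 82.1 to 340 CPM. For these genes more AiE0779m nuclei had a read, without a summed level beyond that of every other vector.

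Grik2 encodes the kainate receptor subunit GluK2, and was read in 19 of 30 AiE0779m nuclei (63.3%, 43.9 to 80.1). Its level was 5.0 ± 4.07 in AiE0779m, against 4.93 in AiE0140h, the nearest, 1.10 in hSyn1, the lowest, and a median of 2.55, so the lead over AiE0140h was small. In nuclei with no Xist and a Y-linked read it stood at 5.04, below AiE0140h at 6.21. Psmd12, a proteasome lid subunit, stood at 5.88 ± 4.10 against 1.43 to 4.11. Anapc5, a subunit of the anaphase-promoting ubiquitin ligase, stood at 7.25 ± 3.89 against 3.63 to 6.37. Both had summed levels above every other vector, with 387 and 554 CPM in AiE0779m, against at most 244 and 487 CPM elsewhere. Cdipt, which makes phosphatidylinositol, was at 5.27 against 1.35 to 4.35, and Sfswap, a splicing regulator, at 4.73 against 1.33 to 4.00. Stk25, a Golgi-associated kinase, Man1a2, a Golgi mannosidase, Atat1, the tubulin acetyltransferase, and 9530059O14Rik completed the 12, with differences of 2.33, 2.25, 2.24 and 2.42.

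The genes furthest below the other vectors were led by Unc50 (ENSMUSG00000026111, chromosome 1, 37430139 to 37439124), whose product sits in Golgi membranes and in Caenorhabditis elegans serves acetylcholine receptor traffic. It was read in 3 of 30 AiE0779m nuclei (10%, 2.1 to 26.5), against 21.4% to 55.6% of nuclei in the other vectors. Its level was 0.88 ± 2.68 in AiE0779m, against 2.03 in AiE0743m_3xC2, the lowest, 4.74 in AiE0387m, the highest, and a median of 3.59. Its summed level was 39.4 CPM (35.3 to 43.8), against 93.2 to 284 CPM, and edgeR's adjusted p was 0.441. An adjusted p of this kind can be shared by many genes and does not rank Unc50 first among them. A level outside the range is the rule by which Unc50 was named, and its summed level lay outside the range too. Single nuclei overlapped, as AiE0779m reached 471 CPM in a nucleus and the median over nuclei of the other vectors was 0.

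Adss, an enzyme of AMP synthesis, had a level of 1.71 against 2.07 to 5.98. Syt5, a synaptotagmin of secretory vesicles, had 3.76 against 4.55 to 7.01, with summed levels of 270 CPM against 375 to 678 CPM. Top2b, the DNA topoisomerase of neurons after division, had 1.66 against 2.23 to 5.64, and Tctn3, a protein of the base of the cilium, 1.40 against 2.44 to 4.23. Rundc3a, a neuronal RUN domain protein, had 2.84 against 3.45 to 5.65, and was read in 13 of 30 nuclei, against 45.5% to 72.2% elsewhere. The other members of the 12 were Bmyc, Lrrc57, Plbd2, Phf3 and Brd3os, with differences of -2.11, -2.07, -1.94, -1.76 and -1.75, and Egr1, which is described with the immediate early genes. Under 18 alternative settings 10 of the 24 genes always passed the limits; 9 no longer did in nuclei with no read of Foxp2 or Tle4, and 8 with smaller vectors of at least 5 nuclei included. Of these 24 genes, 3 had a difference larger than the SD over AiE0779m nuclei, and most had either no read or a high CPM in a nucleus. The annotation places another gene over 15 of the 24, for 10 of them on the other strand, and reads of such pairs cannot be assigned without the counting rules.

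**Figure D1:**
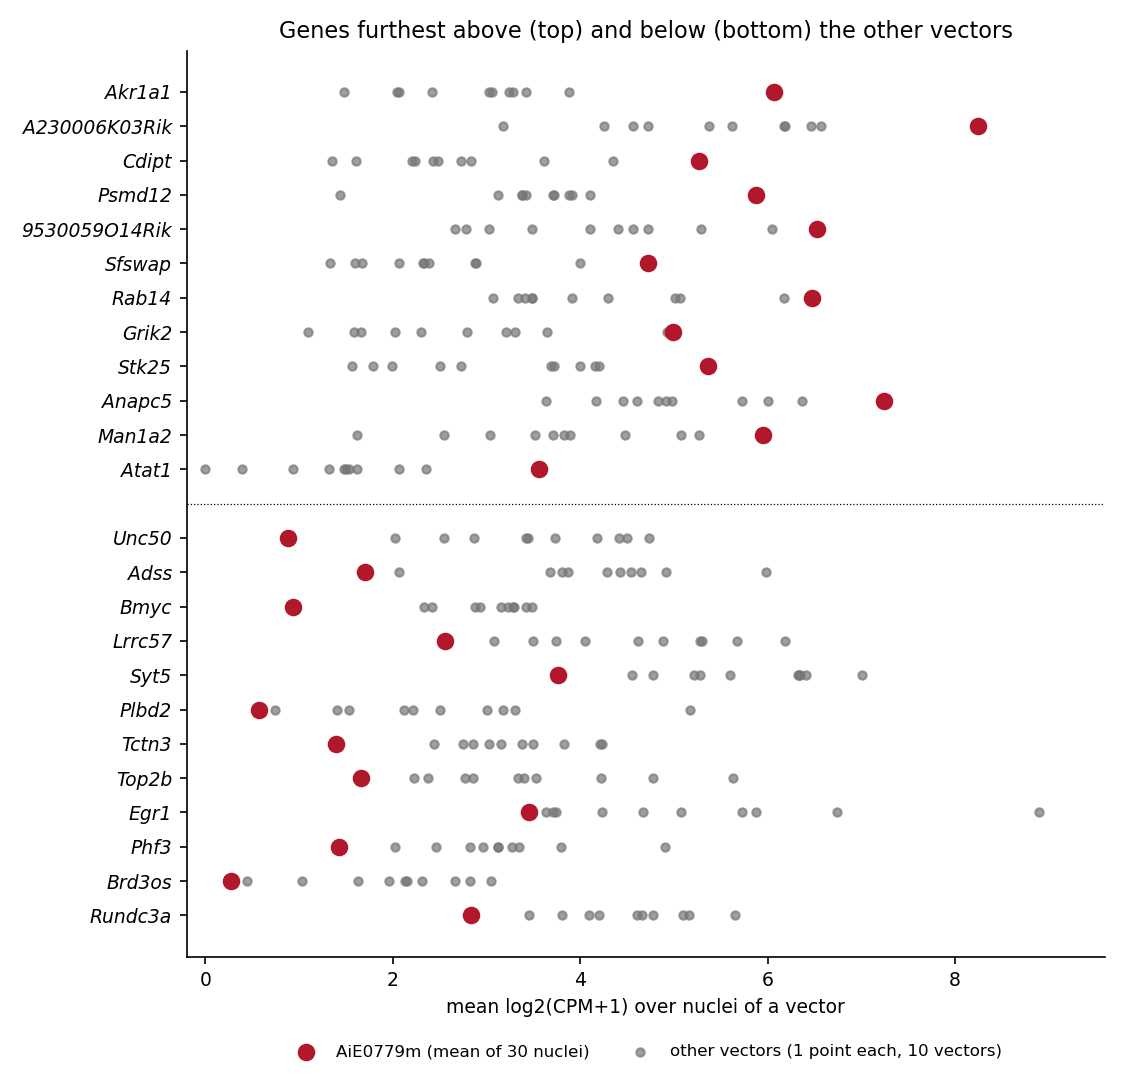
Mean log2(CPM+1) of the 12 genes furthest above (top) and the 12 furthest below (bottom) the other vectors. The red point is the mean of 30 AiE0779m nuclei and each grey point the mean of 1 other vector; Akr1a1 stands at 6.07 against at most 3.89, and Unc50 at 0.88 against at least 2.03.

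**Figure D2:**
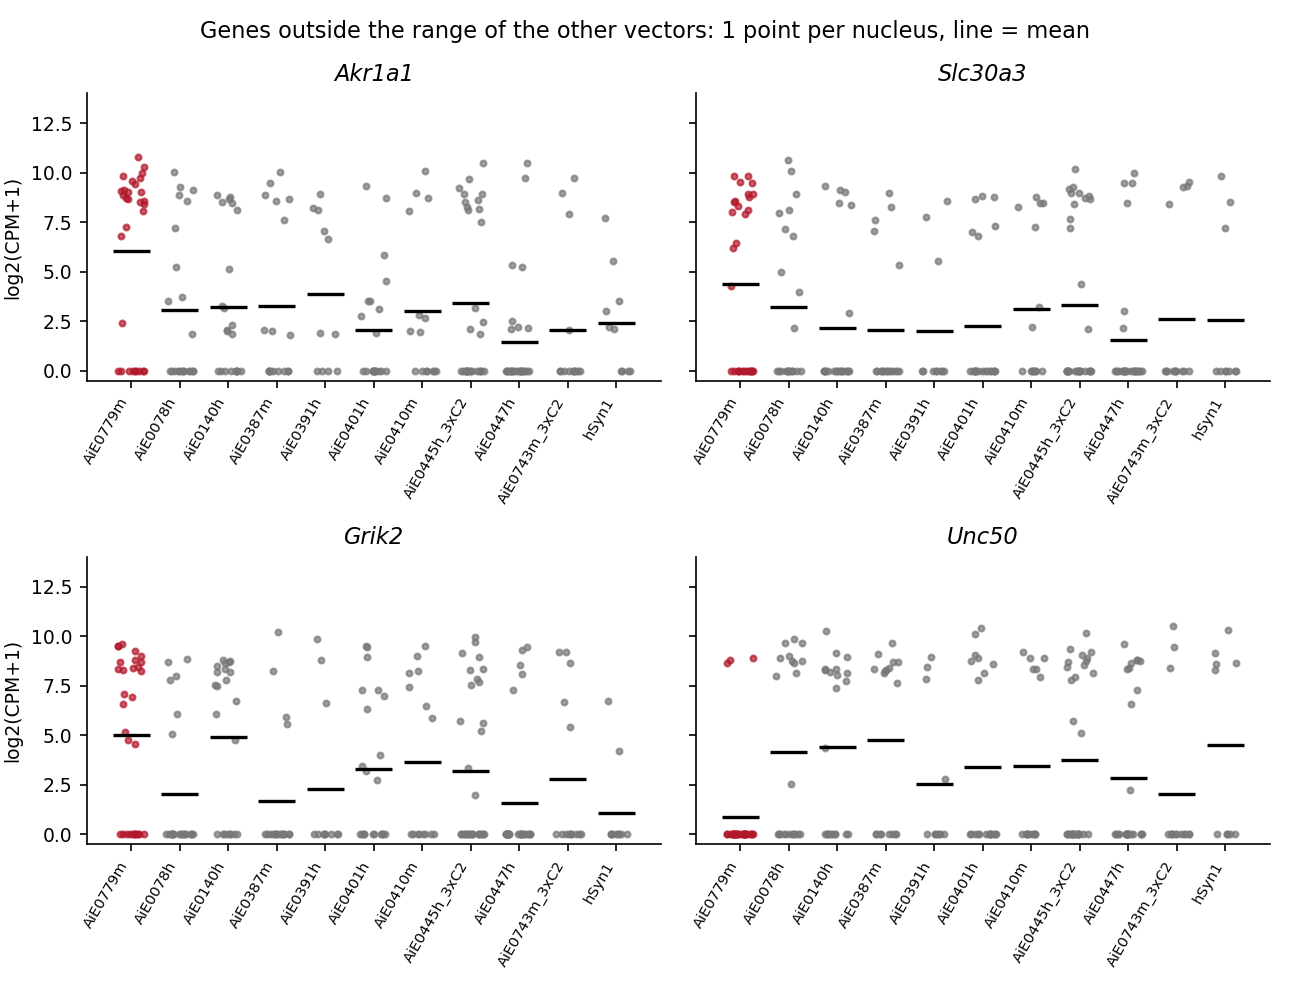
log2(CPM+1) of Akr1a1, Slc30a3, Grik2 and Unc50, with 1 point per nucleus, AiE0779m in red at the left, the other vectors in grey, and a black line at each vector's mean. Nuclei fall at 0 or at high values, so a vector's mean follows its share of nuclei with a read: 21 of 30 AiE0779m nuclei for Akr1a1 and 3 of 30 for Unc50.

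The AiE0779m nuclei carried the genes of cortical excitatory neurons, and 1 of them, Slc30a3, lay above every other vector. Slc30a3 encodes ZnT3, which loads zinc into glutamate vesicles (ENSMUSG00000029151, chromosome 5, 31086106 to 31108237). It was read in 16 of 30 nuclei (53.3%, 34.3 to 71.7 after thinning), against 22.2% of AiE0447h nuclei and 40.9% of AiE0078h nuclei at the extremes of the other vectors. Its level was 4.39 ± 4.31 in AiE0779m, against 1.58 in AiE0447h, the lowest, 3.31 in AiE0445h_3xC2, the highest, and a median of 2.41. Its summed level was 208 CPM in AiE0779m, and the mean of the other vectors was 122 CPM. In nuclei with no read of Foxp2 or Tle4 it stood at 4.56, just below AiE0410m at 4.67. Neurod6, a transcription factor of pallial excitatory neurons, came second of 11 with 5.03, against 1.42 in hSyn1 to 5.12 in AiE0410m. Camk2a was also second with 5.50, and Sv2b stood 10 from the top with 4.32. Of 8 members of the list of 10 that could be counted, 1 was above the limits, 12.5% beside 5.01% of all genes, and none below. Of their differences 4 were positive, with a median of 0.09 beside 0.11 over all genes. The mean over the list without Slc17a7 was 3.74 in AiE0779m, against 3.0 to 3.63 in the other vectors.

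AiE0779m nuclei held markers of several cortical layers, as those of the other vectors did. Rasgrf2, an exchange factor of layer 2 and 3 neurons, was read in 10 of 30 AiE0779m nuclei (33.3%, 17.3 to 52.8) after thinning, against 4.8% to 27.8% of nuclei in the other vectors. Without thinning it was again read in 10 of 30, and in 6 of 18 AiE0387m nuclei, so the shares of these vectors were then equal. Its level was 2.60 ± 3.93, against 0.34 in AiE0401h to 2.43 in AiE0387m, and the lead over AiE0387m was small. Cux2, an upper-layer factor, was read after thinning in 12 of 30 AiE0779m nuclei (40%, 22.7 to 59.4), against 5.6% to 40% elsewhere. At least 1 of Cux2 and Rasgrf2 was read in 16 AiE0779m nuclei (53.3%, 34.3 to 71.7), against 19% to 60%. Of 5 upper-layer genes that could be counted among 9, 1 was above the limits and none below. That 1 gene, Rasgrf2, is 20% of them, beside 5.01% of all genes above. The 20% limit is a mean of shares that includes AiE0779m. Rasgrf2 no longer met it after thinning, without AiE0387m, or in nuclei with no Xist and a Y-linked read. Of the 5 differences 3 were positive, and those of Cux1 and Calb1 were negative. Cux1 stood at 2.52, against 1.61 to 3.46, and Calb1 at 3.39, against 2.27 to 5.10. The level of Cux2 was 2.07, inside the range of 0.21 in AiE0387m to 2.59 in AiE0743m_3xC2. The median difference was 0.47, and the list mean was 2.05 in AiE0779m, against 1.33 to 2.08.

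Of 4 genes of layer 6 corticothalamic neurons that could be counted, Tbr1, a factor of early-born cortical neurons, had a positive difference with a level of 2.03 against 0.77 to 3.51, and Col5a1, Tle4 and Garnl3 had negative ones. Garnl3, which carries a Rap GTPase-activating domain, had 2.7 ± 3.79 in AiE0779m, against 2.97 in AiE0140h to 5.82 in AiE0743m_3xC2. In nuclei with no Xist and a Y-linked read it stood at 2.62, above hSyn1 at 2.35, and in nuclei with no read of Foxp2 or Tle4 at 2.01, above AiE0140h at 1.88. It was read after thinning in 10 of 30 AiE0779m nuclei (33.3%, 17.3 to 52.8), against 36.4% to 71.4%. The deep-layer factors Foxp2 and Tle4 were read after thinning in 2 and 7 AiE0779m nuclei (6.7%, 0.8 to 22.1, and 23.3%, 9.9 to 42.3), against 0% to 22.2% and 7.4% to 36.4%. Rprm, a marker of corticothalamic cells, was read in 0 of 30, for which 3 nuclei would be 10% and the exact upper limit is 11.6% of nuclei with a read, and in 17 of 191 nuclei of the other vectors. At least 1 of Foxp2, Tle4, Syt6, Rprm and Hs3st4 was read in 7 AiE0779m nuclei (23.3%, 9.9 to 42.3), against 10% to 57.1% with a mean of 36.4%. Of the 4 counted among the 9 of the list, none was above and 1 below the limits. That 1 gene is 25% of them, beside 6.82% of all genes in either direction. The median difference was -0.40, and the list mean was 1.01, against 0.76 to 2.05, ninth of 11 vectors.

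Markers of the other projection classes were sparse. Rorb, of middle layers, was read in 5 of 30 AiE0779m nuclei after thinning (16.7%, 5.6 to 34.7), against 9.1% to 29.6%. Bcl11b and Fezf2, of layer 5 extratelencephalic cells, were each read in 4 (13.3%, 3.8 to 30.7), against 0% to 27.3%. Tshz2, of near-projecting cells, was read in 5 (16.7%, 5.6 to 34.7), against 0% to 22.7%. No member of the lists for extratelencephalic, near-projecting, layer 6b, claustral or hippocampal cells was read widely enough to be counted. Slc17a6, the transporter of thalamic glutamate neurons, was read in 2 AiE0779m nuclei, and Tcf7l2, Lef1, Prkcd, Lhx9 and Shox2 of the same list were at 0. Its remaining member, Rora, was read in 8 AiE0779m nuclei with a level of 2.03, against 0 in AiE0391h to 3.67 in AiE0140h, a difference of 0.36. Within AiE0779m, Cux2 was read without Tle4 in 12 nuclei, Tle4 without Cux2 in 7, and both in 0. In the other vectors the same counts were 43, 46 and 5 of 191 nuclei. Rasgrf2 and Tle4 were also read together in 0 AiE0779m nuclei, but Slc30a3 and Tle4 in 3 and Rorb and Tle4 in 2. Without thinning, Rorb was read in 6 AiE0779m nuclei, Garnl3 in 11 and Egr1 in 13, and the counts of Cux2, Foxp2, Tle4, Bcl11b, Fezf2, Tshz2, Slc30a3 and Fos were the same.

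**Figure D3:**
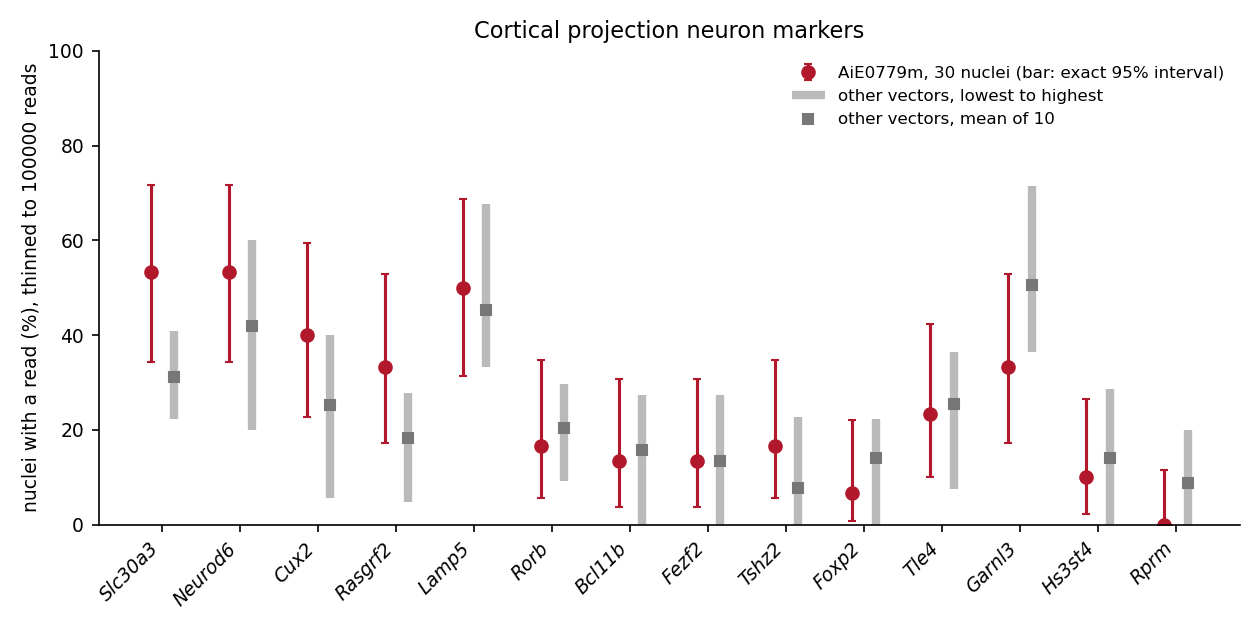
Share of nuclei with a read of 14 projection neuron markers after thinning to 100000 reads. Red points are AiE0779m with exact 95% intervals, grey squares the mean of the 10 other vectors and grey bars their range; Slc30a3 at 53.3% and Rasgrf2 at 33.3% lie above the range, Garnl3 at 33.3% below it, and most others inside it.

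Rapid immediate early genes stood at opposite ends of the order of vectors in AiE0779m. Egr1 and Nr4a1 lay below every other vector, Arc below all but AiE0445h_3xC2, and Fos above all but AiE0078h. Egr1, a zinc finger transcription factor (ENSMUSG00000038418, chromosome 18, 34859823 to 34864984), was read in 13 of 30 AiE0779m nuclei with a level of 3.46 ± 4.37. The other vectors ran from 3.63 in AiE0140h, 3.71 in hSyn1 and 3.75 in AiE0401h through a median of 4.87 to 8.90 in AiE0078h. Its summed level was 206 CPM (197 to 216) in AiE0779m, against 243 to 991 CPM. AiE0779m was the lowest, with 3 other vectors close above it. After thinning it stood at 3.44, just above AiE0140h at 3.35.

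Nr4a1, an orphan nuclear receptor induced with the same genes (chromosome 15, 101254269 to 101274795), had a level of 3.61 ± 3.90 in AiE0779m, against 3.72 in AiE0387m, the lowest, 6.22 in AiE0078h, the highest, and a median of 4.45. After thinning it stood at 3.69, above AiE0387m at 3.53, and its difference was -0.93, so neither Egr1 nor Nr4a1 then passed the limits. Without AiE0078h or AiE0447h the difference of Nr4a1 was -0.93 or -0.96. Arc, whose product acts at synapses on receptor removal, had 4.25 ± 4.51, against 4.16 in AiE0445h_3xC2 to 7.53 in hSyn1. Fos, the partner of Jun proteins in the AP-1 factor (chromosome 12, 85473890 to 85477273), had 4.32 ± 4.48 in AiE0779m. For Fos the other vectors gave 4.67 in AiE0078h, 3.49 in AiE0401h, 2.92 in AiE0387m, 2.83 in AiE0447h, 2.52 in AiE0410m, 2.05 in AiE0743m_3xC2, 1.98 in hSyn1, 1.63 in AiE0140h, 1.30 in AiE0445h_3xC2 and 1.10 in AiE0391h. After thinning Fos was read in 50% of AiE0779m nuclei (31.3 to 68.7), against 9.1% to 50%, and Egr1 in 40% (22.7 to 59.4), against 40% to 90.9%.

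Counted nucleus by nucleus, Fos without Egr1 was found in 7 of 30 AiE0779m nuclei, Egr1 without Fos in 5 and both in 8. In the other vectors these counts were 8, 70 and 46 of 191. Of 9 rapid genes (Fos, Junb, Egr1, Egr3, Egr4, Arc, Nr4a1, Dusp1 and Ier5), an AiE0779m nucleus had reads of 0 to 8 with a median of 4, and 12 of 30 nuclei (40%) had at least 5. In the other vectors the median was 2 to 5.5, and the share with at least 5 ran from 27.3% in AiE0140h to 77.3% in AiE0078h. Of 8 rapid genes that could be counted in the list of 18, none was above the limits and 2 were below. That is 25% of them, beside 6.82% of all genes in either direction. Their median difference was -0.61. The mean over the list was 1.84 in AiE0779m, against 1.56 to 3.13, sixth of 11. It was -0.26 from the mean of the others, and -0.14 without AiE0078h or -0.15 without hSyn1.

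**Figure D4:**
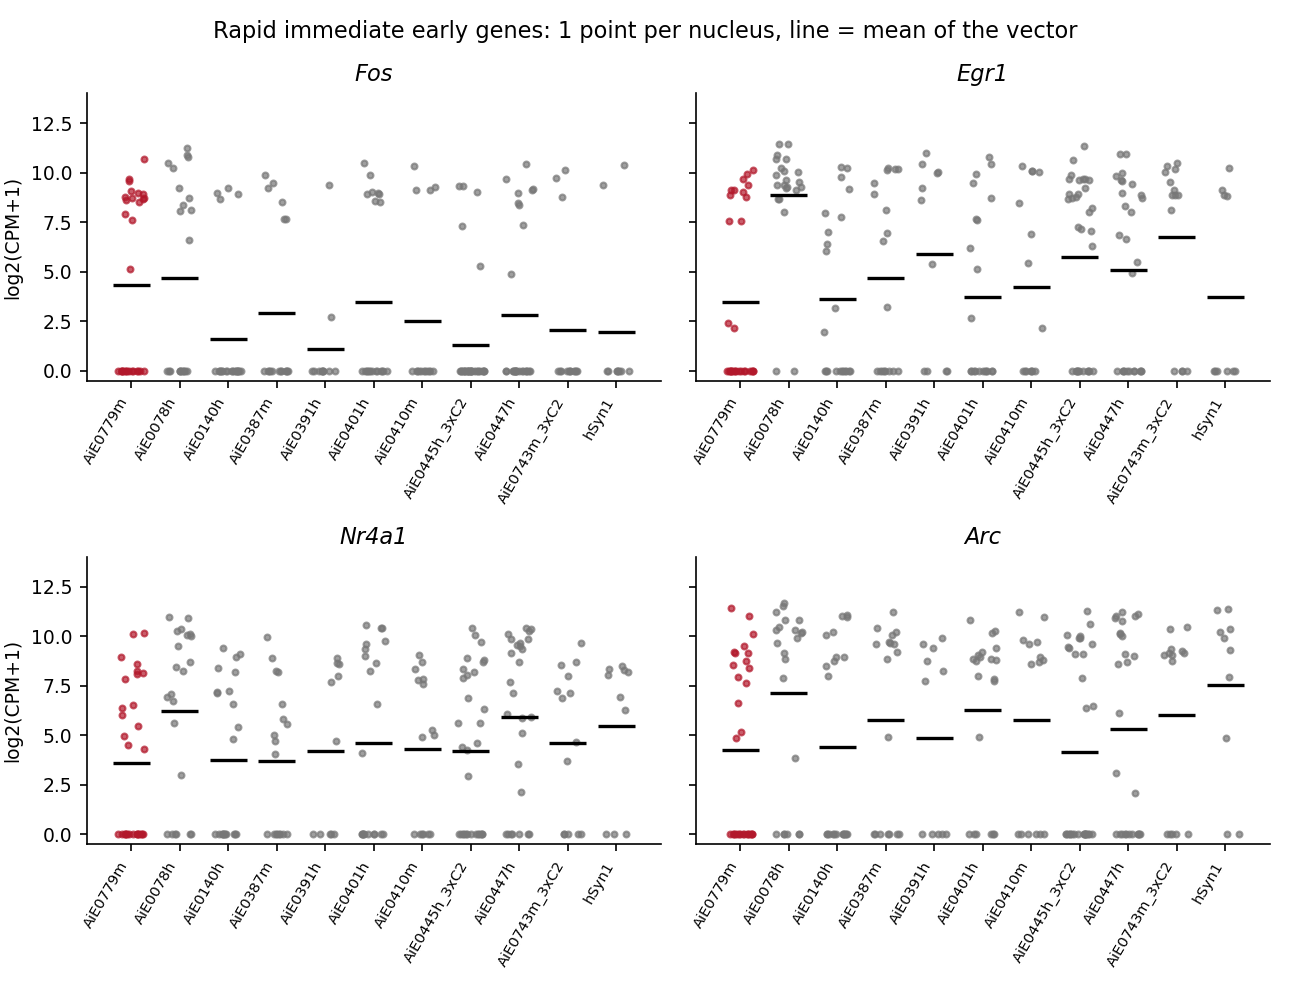
log2(CPM+1) of Fos, Egr1, Nr4a1 and Arc, with 1 point per nucleus, AiE0779m in red at the left, other vectors in grey, and a black line at each vector's mean. Without thinning the AiE0779m mean is the lowest of 11 for Egr1 (3.46) and Nr4a1 (3.61) and the second highest for Fos (4.32).

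Many activity-regulated promoters hold the cyclic AMP response element, TGACGTCA, or its shorter core TGACG, to which CREB can bind. The 250 bases before the start site are shown for 3 genes. Without thinning, AiE0779m was second highest of the vectors for Fos, lowest for Nr4a1 and highest for Pcsk1. Sequences are from RefSeq on GRCm38.p6, read 5′ to 3′ on the plus strand, on which all 3 genes lie, and capitals mark TGACG on either strand. The start site is that of a RefSeq transcript; for Nr4a1 and Pcsk1 it lies inside the gene limits given from GENCODE, which begin earlier. The windows are chr12:85473640-85473889 for Fos, chr15:101266596-101266845 for Nr4a1 and chr13:75089607-75089856 for Pcsk1.
Fos: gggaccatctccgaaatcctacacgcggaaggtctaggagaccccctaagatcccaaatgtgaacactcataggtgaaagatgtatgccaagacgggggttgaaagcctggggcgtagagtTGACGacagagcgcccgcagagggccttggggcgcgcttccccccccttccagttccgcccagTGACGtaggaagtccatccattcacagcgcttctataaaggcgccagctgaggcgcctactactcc
Nr4a1: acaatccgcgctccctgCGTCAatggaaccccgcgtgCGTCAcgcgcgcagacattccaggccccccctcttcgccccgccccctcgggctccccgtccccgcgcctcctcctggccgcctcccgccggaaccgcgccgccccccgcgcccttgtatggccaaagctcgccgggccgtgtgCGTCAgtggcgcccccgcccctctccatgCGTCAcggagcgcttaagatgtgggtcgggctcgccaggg
Pcsk1: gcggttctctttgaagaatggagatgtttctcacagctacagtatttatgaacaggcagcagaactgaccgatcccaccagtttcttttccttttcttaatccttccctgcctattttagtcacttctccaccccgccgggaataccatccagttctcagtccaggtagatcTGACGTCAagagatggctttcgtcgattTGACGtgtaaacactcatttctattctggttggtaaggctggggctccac

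Fos had 2 matches of TGACG, beginning 129 and 66 bases before the start site, and Nr4a1 had 4, beginning 233, 213, 69 and 40 bases before it. Pcsk1 had 3, at 78, 75 and 50 bases, the first 2 of which overlap and form the full TGACGTCA. TGACG was found in 17.8% of all 32851 RefSeq windows of this length and TGACGTCA in 1.55%, searched on both strands. Of the 18 rapid and delayed activity-regulated genes that could be counted, 13 had windows that were searched, and TGACG was found in 12 of their 21 windows. A relation between these letters and the direction of a difference was not tested, and a match is no measure of binding.

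Most delayed activity-regulated genes had positive differences in AiE0779m. Of 10 that could be counted in the list of 16, 2 were above the limits, 20% beside 5.01% of all genes, and none below. Of their differences 8 were positive, beside 56.0% of all genes, and the median was 0.66 beside 0.11 over all genes. Pcsk1, the prohormone convertase that cuts neuropeptide precursors (chromosome 13, 75089826 to 75134861), was read in 18 of 30 AiE0779m nuclei. Its level was 4.50 ± 4.14, against 1.62 in AiE0447h, the lowest, 3.82 in AiE0410m, the highest, and a median of 2.76. Nrn1, a small surface protein that promotes neurite growth, had 4.91 ± 3.55, against 2.39 in AiE0743m_3xC2 to 4.74 in AiE0447h. Its difference of 1.27 came to 0.16 in nuclei with no read of Foxp2 or Tle4, where it stood inside the range. In nuclei with no Xist and a Y-linked read Pcsk1 stood at 4.55, below hSyn1 at 5.01, and Nrn1 at 4.71, below AiE0410m at 5.14. Dusp6, a phosphatase of ERK kinases, was second with 4.14, and Scg2, a granin of dense-core vesicles, stood 4 from the top with 5.14. Per1 and Rgs2 had differences of -0.63 and -0.43. The list mean was 2.66 in AiE0779m, against 2.15 to 2.80, with 2 vectors above it.

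Mdm2 and Zmat3, targets of the damage-responsive transcription factor p53, lay above every other vector. Mdm2, the ubiquitin ligase that degrades p53 (chromosome 10, 117688875 to 117710758), had 3.64 ± 4.11, against 1.15 in AiE0743m_3xC2, the lowest, 2.56 in AiE0401h, the highest, and a median of 1.91. Zmat3, an RNA-binding p53 target, had 2.35 ± 3.29, against 0.52 in AiE0391h to 2.26 in AiE0078h. After thinning Zmat3 stood at 2.21, below AiE0078h at 2.30, with a difference of 0.98, and with vectors of at least 5 nuclei included Mdm2 at 3.64 was below the smaller vector DLX2.0 at 4.05. Cdkn1a, Bax and Plk2 were above the median vector but not outside the range, with differences of 0.48, 0.52 and 0.56. In nuclei with no read of Foxp2 or Tle4 Zmat3 stood at 2.37, below AiE0078h at 2.39. With no Xist and a Y-linked read it stood at 2.51, below AiE0078h at 2.62. All 5 genes that could be counted among 11 had positive differences, beside 56.0% of all genes, and 2 were above the limits, 40% beside 5.01%. The median difference was 0.56 beside 0.11 over all genes, and the list mean was 1.84, against 1.04 to 1.78. No interferon-response gene was read widely enough to be counted, and the mean over those 15 genes was 0.25, against 0.11 to 0.24.

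Among receptors and channels, members of the same family stood on both sides. Of 10 ionotropic glutamate receptor genes that could be counted in 16, Grik2 was above the limits, 10% beside 5.01% of all genes, and none below. Gria2, the AMPA receptor subunit that sets calcium entry, was the lowest of 11 with 10.83, against 10.87 to 11.26. The metabotropic receptor genes Grm7 and Grm5 had differences of 0.98 and 0.48, inside the range of the others. Of 13 sodium and calcium channel genes that could be counted in 16, 1 was above and 1 below, 15.4% of them beside 6.82% of all genes. Cacna1g, the T-type channel Cav3.1, had 3.02 ± 3.86 against 1.17 to 2.83, and Cacna1a, the P/Q-type channel that drives transmitter release, had 2.82 ± 3.76 against 3.20 to 5.35. The difference of Cacna1g, 1.02, was 0.93 to 0.96 without AiE0078h, AiE0391h or hSyn1, and Cacna1a stood after thinning at 2.74, above AiE0743m_3xC2 at 2.61. None of 10 potassium channel genes, 8 GABA-A receptor genes, 15 vesicle release genes, 15 calcium/calmodulin genes or 16 cyclic AMP genes passed the limits. Their median differences were 0.01, 0.08, -0.13, -0.01 and 0.16.

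Adhesion and guidance genes had median differences of 0.38 and 0.43, above the 0.11 of all genes. Efna5, the ligand ephrin-A5 that repels growing axons (chromosome 17, 62604184 to 62881317), had 2.63 ± 3.32 in AiE0779m, against 0.62 in AiE0743m_3xC2 to 1.45 in AiE0410m with a median of 1.14. It was read in 14 of 30 AiE0779m nuclei and, as a mean over the other vectors, in 20.6% of nuclei. Its receptor Epha4 was second with 4.44, against 2.10 to 4.90, and Plxna4, a semaphorin receptor, was first with 2.39, against 0.37 to 2.32, with a difference of 0.95. Lrrtm4, a postsynaptic adhesion protein, had 4.01 ± 3.50, against 2.08 to 3.94, while Nlgn1, a neuroligin, was 10 from the top with 3.35. Of 16 adhesion genes and 11 guidance genes that could be counted, 1 in each list was above the limits and none below, 6.25% and 9.09% beside 5.01% of all genes, so these counts are near the background. The difference of Lrrtm4, 1.06, was 0.97 without AiE0078h, 0.98 without AiE0447h and 0.997 without AiE0445h_3xC2.

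**Figure D5:**
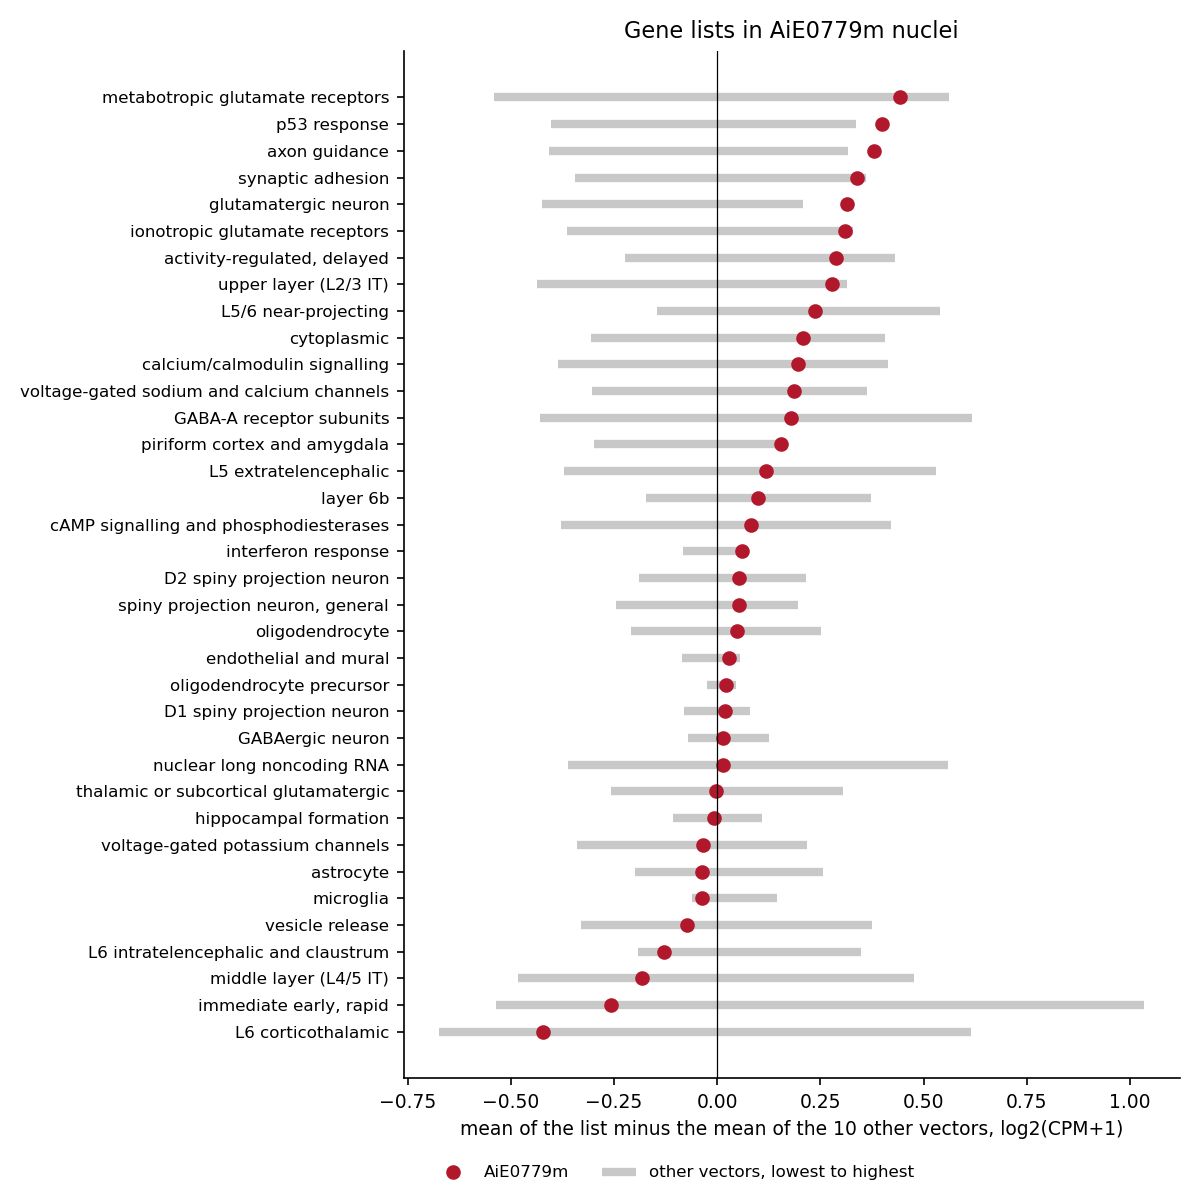
Mean of each gene list in AiE0779m (red points) minus the mean of the 10 other vectors, with the range of the other vectors as grey bars, in log2(CPM+1). AiE0779m lies past the upper end of the bar for the p53, axon guidance, glutamatergic neuron and interferon lists and inside it for the others; the interferon list stands at 0.25 against at most 0.24.

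Most markers of other cells were low in AiE0779m, and their list means did not stand apart from the other vectors. Slc32a1, the vesicular GABA transporter, was read in none of the 30 nuclei (3 nuclei would be 10%, exact upper limit 11.6%). The GABAergic list without Gad1 and Gad2, which the limits on nuclei used, averaged 0.17, against 0.09 to 0.29, with 10 of these 16 members at 0. Of the dopamine receptor genes of striatal projection neurons, Drd1 was read in 2 of 30 AiE0779m nuclei and 5 of 191 others, and Drd2 in none. The general list for these neurons averaged 2.80, against 2.50 to 2.94, carried by Arpp21, Phactr1, Pde10a and Foxp1, which cortical neurons also use. The tissue label is striatum, whose principal neurons are GABAergic and were left out by the limits on Slc17a7, Gad1 and Gad2. Low levels of Slc32a1 and of the striatal receptor genes therefore follow from the selection. Markers of cortical excitatory neurons were present, in nuclei chosen by Slc17a7. Aqp4, the astrocyte water channel, P2ry12, of microglia, Pdgfra, of oligodendrocyte precursors, and Cldn5, of endothelium, were at 0 in AiE0779m. Other glial list members were read. Of the astrocyte list, Slc1a2 had reads in 23 of 30 AiE0779m nuclei, Aldoc in 7 and Gfap in 3. The level of Slc1a2 was 5.96, against 3.25 in hSyn1 to 6.90 in AiE0445h_3xC2. Of the oligodendrocyte list, Mobp was read in 7 AiE0779m nuclei and Mbp in 6. Mobp had a level of 2.14, against 0 in hSyn1 to 2.72 in AiE0078h. List means were 1.03 for astrocytes, 0.57 for oligodendrocytes and 0.04 for microglia, against 0.86 to 1.32, 0.32 to 0.78 and 0.01 to 0.22. Mitochondrially encoded genes took 0.0161% of AiE0779m reads, against 0.00374% to 0.0406%.

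Reads of sex-linked transcripts were uneven over the vectors, and the labels give no sex; their part in the differences was not tested beyond the values below. Xist, the RNA that coats the inactive X chromosome, was read in 0 of 30 AiE0779m nuclei, and at least 1 of the Y-linked genes Ddx3y, Uty, Kdm5d and Eif2s3y in 28. Among the other vectors Xist was read in 9 of 31 nuclei of AiE0445h_3xC2, 8 of 22 of AiE0140h, 7 of 15 of AiE0410m, 6 of 27 of AiE0447h, 2 of 22 of AiE0078h, 1 each of AiE0387m and AiE0743m_3xC2, and none of AiE0391h, AiE0401h and hSyn1. In AiE0445h_3xC2, AiE0140h, AiE0410m, AiE0447h and AiE0078h a Y-linked read was found in 20, 9, 7, 17 and 19 nuclei, none with Xist. These vectors thus held nuclei with reads of either sex, which 1 mouse would not give. In nuclei with no Xist and a Y-linked read, 167 genes were above and 87 below the limits, and 115 and 45 of these were among the 240 and 87. The genes that could be counted were chosen anew in those nuclei. The differences of Akr1a1, Slc30a3 and Unc50 were then 3.37, 1.43 and -2.34.

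A second library set held 8 AiE0779m nuclei, of which 2 met the same limits. They had 7137 and 7278 genes, against medians of 2432 to 6734 in 8 other vectors with 80 nuclei, and 81.9% of the 4794 genes were above the mean of those vectors. All 12 of the genes furthest above had a positive difference there and 1 of the 12 furthest below had a negative one, in nuclei where most genes were above the others. Akr1a1 was at 263 and 194 CPM in the nuclei, Rasgrf2 at 688 and 510 CPM, and Slc30a3 at 199 and 57.8 CPM. Unc50, the gene furthest below in the main set, was at 162 and 179 CPM, while Garnl3 was at 0 and 26.3 CPM and Tctn3 at 0 in both. Fos was at 0 and 10.5 CPM and Mdm2 at 11.3 and 2.63 CPM, with levels below the mean of the other vectors of that set.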

How the data were processed

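The table holds raw read counts per gene and nucleus, deposited by the authors. Per the labels' protocols, cDNA came from SMART-Seq v4 and libraries from Nextera XT; there are no molecular identifiers, so PCR copies are counted as reads. STAR 2.7.2a and mm10 are named in the submitters' processing notes; for the counter, its annotation, strand and introns the entry is: not given in the sources used here. Of 2501 columns, 797 matched a sample by library name and 1704 were not used. Of 32285 gene rows, 32158 had a symbol; rows without one held 0.0931% of reads. Positions are from GENCODE M21, counted from 1.

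Counts were scaled to CPM and log2(CPM+1) averaged per vector with at least 10 qualifying nuclei; 22 nuclei of 7 vectors were below that minimum. Reads summed per vector were tested with edgeR 4.0.16 (TMM, filterByExpr, Benjamini-Hochberg); DESeq2 1.42.0, limma 3.58.1 (R 4.3.3), other pseudocounts, filters, thinning, subsets of nuclei and leaving out each vector were alternatives. Shares have exact Clopper-Pearson and sums exact Poisson 95% intervals, for counting error only; with 0 reads the limit is 3 nuclei of the total. In simulated sums for AiE0779m against the other vectors (15786 genes), edgeR called 0 of 50 genes changed by a factor of 2, 1 of 50 at 4, 4 of 50 at 8 and 10 of 50 at 16. Named genes were those read in at least 20% of nuclei (mean of vector shares), not mitochondrially encoded, not Slc17a7, Gad1 or Gad2, outside the range of all other vectors with the same sign in summed CPM: the 12 largest differences in each direction, any called by edgeR, and list members of largest difference; other genes were named after their values were seen. A list member could be counted where it met the 20% limit, and list means leave out Slc17a7, Gad1 and Gad2. AiE0779m is 1 of the vectors in that mean of shares, so its own share brought some genes over the limit, which favours genes that are high in it. The vector, the rule and the 37 gene lists were chosen with earlier results of these data known. Python 3.11.15, numpy 2.4.6, pandas 2.3.3 and scipy 1.17.1 were used.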

Additional observations from a re-analysis of the deposited data

Results flagged for a closer look

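Among the 10 other vectors, 77 sets of values were searched for a vector whose gap to its neighbour exceeded 0.466 of the range, which chance gives in about 1 in 20 sets, and 4 were found. Psmd12 was lowest in AiE0391h at 1.43, with the next vector at 3.12; AiE0779m had 5.88. The list of layer 5 extratelencephalic genes averaged 0.9 in AiE0391h, with the next at 0.48; AiE0779m had 0.49. The list of near-projecting genes averaged 0.76 in AiE0140h, with the next at 0.29; AiE0779m had 0.46. The microglial list averaged 0.22 in hSyn1, with the next at 0.1; AiE0779m had 0.04.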

How the results depend on the processing

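No paired analysis was possible because the numbers in the sample titles only name nuclei and pair nothing between vectors. Leaving out each other vector in turn, edgeR called 0 genes higher and 0 lower every time, and 241 to 298 genes were above and 95 to 116 below the limits. DESeq2 called 229 genes lower, and 2 with the 20% limit applied first; limma called 284 higher and 1 lower. With log2(CPM+10), 62 genes were above and 15 below, and 59 and 14 of these were among the 240 and 87; a larger pseudocount shrinks every difference by construction. With genes read in at least 5% of nuclei, 363 were above, out of a larger set of genes that holds all of the 240 and 87 by construction. Leaving out a vector can only narrow the range of the others, so the counts without each vector test little. Filters, thinning and subsets also changed which genes could be counted, and these counts are not shares of the same set. Thinning, a stricter Slc17a7 limit, a minimum of 5 nuclei per vector, nuclei with no read of Foxp2 or Tle4, Xist-free nuclei (chosen after seeing the data) and equal weight per nucleus gave 161 to 262 above and 67 to 113 below. Of the 240 and 87 genes, 120 and 41 were shared in nuclei with no read of Foxp2 or Tle4, 115 and 45 in Xist-free nuclei, 150 and 51 with a minimum of 5 nuclei and 205 and 72 after thinning. Of 720 values of named genes under these alternatives, 701 moved by less than the SD over vectors, 19 by more and 0 changed sign. The list means of 6 lists moved by less than that SD throughout. With 30 nuclei, a share of 53.3% has an interval of 34.3 to 71.7%, and each vector is 1 sample.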
